A study of Homo sapiens with 6 samples.

Results

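EHF, ELF3, ELF1, ELF4, ETS1, ETS2, ELK3, ELK4, FLI1 and ERF are 10 human genes of the ETS family of transcription factors. They were chosen by symbol, and all 10 were found among the 15706 genes of the deposited table. RNA was sequenced from MDA-MB-231, an established human triple-negative breast cancer cell line. The 3 sgMLL3 libraries carry a guide RNA against MLL3, a histone H3 lysine 4 methyltransferase gene with the approved symbol KMT2C, and their genotype label is MLL3 knockout. The 3 sgNT libraries carry the label sgNT and a wild type genotype label. Cells of both groups grew in DMEM with serum and received no treatment. Libraries of each group are numbered 1 to 3 and labelled biological replicates, so a p-value weighs a group difference against the spread between these replicates. Whether either group came from 1 clone or a pool is not stated in the labels.

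ETS factors share a winged helix-turn-helix DNA-binding domain, the ETS domain, which reads a GGAA core in DNA. Many members are switched on or off by phosphorylation through the RAS and ERK kinase pathway, and they share target sites, so that their relative amounts in a cell matter. EHF and ELF3 are known for epithelial cells, ETS1 and ETS2 for proliferation and invasion, ELK3 and ELK4 for serum response genes, and FLI1 for blood and vessel cells. ERF is a repressor.

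The 10 genes were proposed with earlier results of the same 6 libraries known, the normalized counts and the comparison of sgMLL3 with sgNT included. Their difference between the groups is therefore given as a description, without a p-value. Each value is a normalized count, which is the number of reads of a gene divided by a size factor of its library. A log2 fold change is sgMLL3 over sgNT on log2(value + 1), which understates the change of low genes, and SE is its standard error. A gene is called higher or lower where limma, fitted to all 14618 genes averaging 10 or more, gave a Benjamini-Hochberg adjusted p under 0.05. All 10 members passed that filter on low values.

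The libraries held 41240265 to 49514464 reads in the listed genes. Across the table, fold changes followed the base composition of the transcripts, with a Spearman correlation of -0.67 with the GC content of the longest transcript over 14598 genes that share the same 6 libraries. Each gene's deviation from its own mean correlated with GC content at -0.68, -0.59 and -0.24 in sgMLL3 replicates 1, 2 and 3, and at 0.32, 0.46 and 0.65 in sgNT replicates 1, 2 and 3. A second value is therefore given for each fold change, with a smooth trend along GC content and transcript length subtracted from each library. KMT2C itself had 1506 ± 161 normalized counts in sgMLL3 and 1334 ± 68.5 in sgNT libraries (SD, n = 3 each), with a log2 fold change of 0.17 (limma adjusted p = 0.205). A count over the whole gene does not check a guide that cuts its DNA, so this value neither backs nor goes against the labels. The line's markers vimentin (VIM) and CD44 were high, with means of 21700 and 18170 normalized counts in sgMLL3 and 24362 and 18559 in sgNT libraries. CDH1, the gene of E-cadherin, had means of 4.02 in sgMLL3 and 5.59 in sgNT libraries, and the estrogen and progesterone receptor genes ESR1 and PGR are not among the rows used here. The receptor gene ERBB2, on the same marker list, averaged 5000 normalized counts in sgMLL3 and 5776 in sgNT libraries. Of its epithelial genes, KRT8 averaged 48226 in sgMLL3 and 52599 in sgNT libraries, and EPCAM 945 and 784.

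DNA ahead of 2 of the genes is shown because EHF had the largest fold above sgNT among the members and ELK4 was the only one with a CCGGAA match. The stretches are the 250 bases before a RefSeq transcript start (GRCh38.p14), written 5′ to 3′ on the strand of the gene, and capitals mark the GGAA core or its complement TTCC. Of 2 EHF stretches in the table, the one printed is at chr11:34624007-34624256 on the plus strand, inside the EHF gene as GENCODE release 29 draws it and outside its exons. The other, at chr11:34632316-34632565, overlaps an untranslated region in GENCODE and is not printed, and it held 0 GGAA cores. The ELK4 stretch is at chr1:205632012-205632261 on the minus strand, just ahead of the gene and outside annotated exons.
EHF: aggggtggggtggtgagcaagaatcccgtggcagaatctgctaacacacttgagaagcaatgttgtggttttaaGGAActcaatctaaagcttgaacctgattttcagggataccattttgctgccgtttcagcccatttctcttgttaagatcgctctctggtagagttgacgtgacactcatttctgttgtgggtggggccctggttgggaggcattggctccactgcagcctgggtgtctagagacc
ELK4: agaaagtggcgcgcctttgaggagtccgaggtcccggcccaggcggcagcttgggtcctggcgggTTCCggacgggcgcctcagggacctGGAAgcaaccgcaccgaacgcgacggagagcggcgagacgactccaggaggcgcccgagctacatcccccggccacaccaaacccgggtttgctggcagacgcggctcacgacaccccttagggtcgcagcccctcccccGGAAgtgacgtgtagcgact

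The RefSeq table held 17 such stretches for 8 members, ETS1 and FLI1 being the 2 without one. The bare core GGAA, searched on both strands, was in 92.7% of 35116 stretches of the same length over all genes. The longer CCGGAA was in 14.5% of them, and CCGGAAGT, which contains it, in 3.42%. The ELK4 stretch held CCGGAA at 2 places. The match 185 bases before the start is printed as its reverse complement TTCCGG. The match 22 bases before the start reads in the printed direction, and there it read on as CCGGAAGT. The stretches of the other 7 members held no CCGGAA, which says only that these letters are not in these windows.

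**Figure D1:**
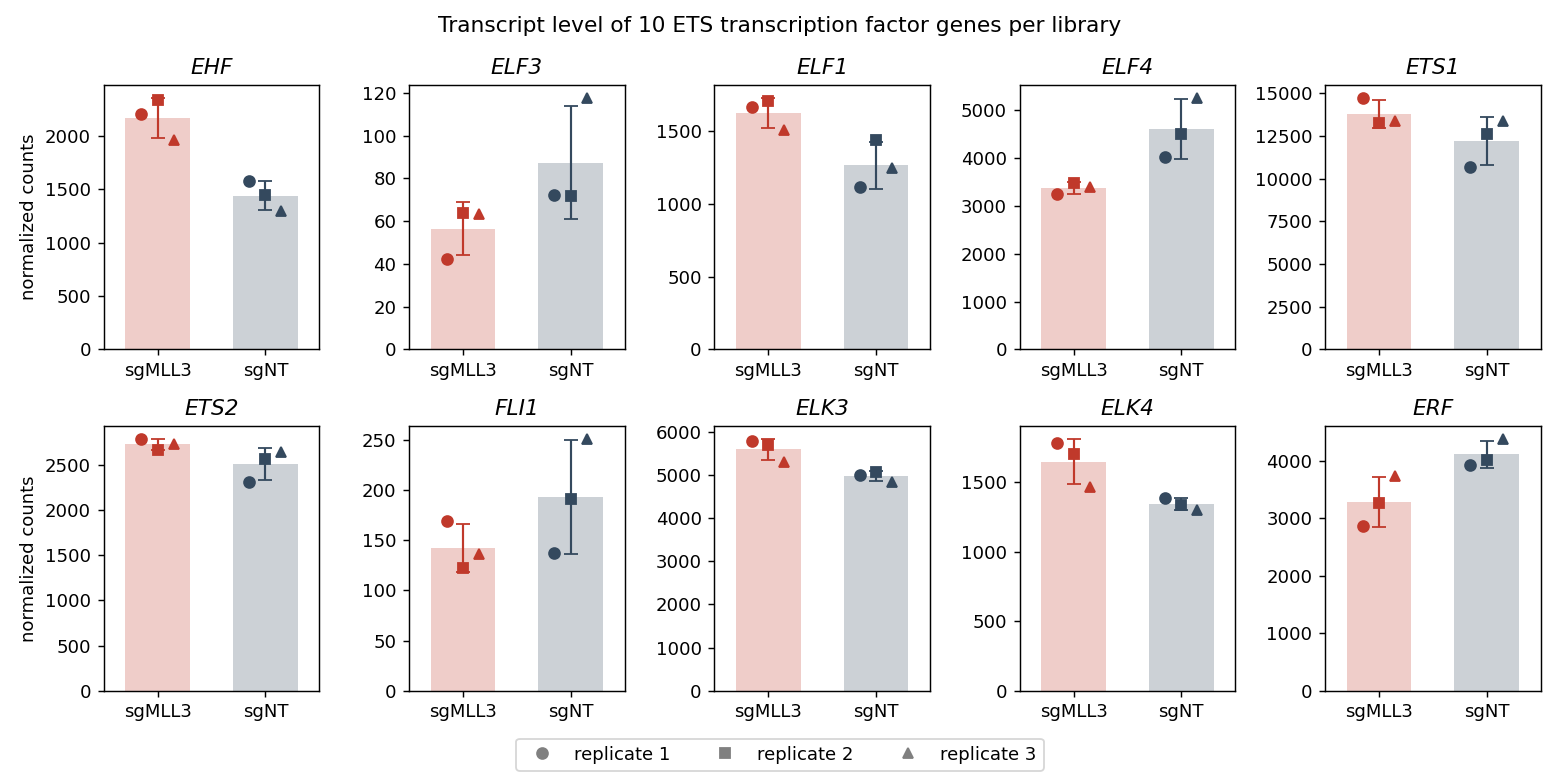
Normalized counts (vertical axes, each from 0) of the 10 ETS genes in the sgMLL3 and sgNT libraries. Points are single libraries, bars are means and error bars are the SD of 3 libraries. The groups do not overlap for 8 genes, against 46.3% of all genes tested, and they do for ETS1 and FLI1.

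EHF, an epithelial factor also called ESE-3, was higher in sgMLL3 libraries by the largest fold of the 10 members. EHF (ENSG00000135373.12, chr11:34621093-34661057, plus strand) had 2210, 2338 and 1966 normalized counts in sgMLL3 replicates 1, 2 and 3, against 1576, 1443 and 1301 in sgNT replicates 1, 2 and 3. Every sgMLL3 library stood above every sgNT library. The means were 2171 ± 189 in sgMLL3 and 1440 ± 137 in sgNT libraries (SD, n = 3 each), a log2 fold change of 0.59 (SE 0.10). With the GC and length trend subtracted, the log2 fold change of EHF was 0.33 (SE 0.070), the groups still did not overlap, and the gene was called higher in both analyses. Leaving out 1 library at a time kept the EHF log2 fold change between 0.52 and 0.66, called each time. The EHF call with the trend subtracted was lost without sgMLL3 replicate 1, sgMLL3 replicate 2 or sgNT replicate 2, at log2 fold changes of 0.34, 0.27 and 0.32.

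ELF3, the other epithelial member and also known as ESE-1, was at a low level and lay lower in sgMLL3 libraries without being called. ELF3 (ENSG00000163435.16, chr1:202007945-202017188, plus strand) had 42.3, 63.8 and 63.3 normalized counts in sgMLL3 replicates 1, 2 and 3, against 72.2, 72.0 and 118 in sgNT replicates 1, 2 and 3. The groups did not overlap, with sgMLL3 replicate 1 lowest and sgNT replicate 3 highest. These values rest on 40 to 122 reads a library. The log2 fold change of ELF3 was -0.61 (SE 0.27), and -0.44 with the trend subtracted. It was -0.37 without sgNT replicate 3 and -0.41 without sgMLL3 replicate 1. ELF3 was called only where sgNT replicate 1 was left out, at -0.72.

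The balance between the epithelial members restates the EHF and ELF3 differences above as a ratio. Levels of different genes are compared here per length, as normalized counts divided by the kilobases of the longest transcript. EHF stood at 82.9, 58.1 and 49.2 times the ELF3 level per length in sgMLL3 replicates 1, 2 and 3, against 34.6, 31.8 and 17.5 times in sgNT replicates 1, 2 and 3. The ratio in every sgMLL3 library was above that in every sgNT library, and it varied widely within each group. That separation follows from EHF being higher and ELF3 lower in every sgMLL3 library, so it is no further result.

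ELF1 and ELF4, a pair of related factors known for lymphocyte and endothelial genes, stood on opposite sides. ELF1 (ENSG00000120690.16, chr13:40932028-41061440, minus strand) had 1662, 1707 and 1507 normalized counts in sgMLL3 replicates 1, 2 and 3, against 1116, 1436 and 1246 in sgNT replicates 1, 2 and 3. The sgMLL3 libraries were all higher, with sgNT replicate 2 nearest to them. ELF1 had a log2 fold change of 0.37 (SE 0.11), called higher, and -0.040 with the trend subtracted, where the groups overlapped. The call was also lost without sgMLL3 replicate 1, at 0.35, and without sgMLL3 replicate 2, at 0.33. ELF1 shares 167 bases of its ends with WBP4 on the other strand. The strand setting of the read counting is not given in the sources used here, so reads of such an overlap cannot be told apart.

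ELF4, also called MEF, was lower in sgMLL3 libraries in both analyses. ELF4 (ENSG00000102034.16, chrX:130064874-130110716, minus strand) had 3250, 3490 and 3398 normalized counts in sgMLL3 replicates 1, 2 and 3, against 4035, 4516 and 5269 in sgNT replicates 1, 2 and 3. The sgMLL3 libraries lay close together and all below the sgNT libraries, whose spread was wider. The means were 3379 ± 121 in sgMLL3 and 4607 ± 622 in sgNT libraries (SD, n = 3 each). ELF4 had a log2 fold change of -0.44 (SE 0.095), called lower in this and each of the 6 fits with 1 library left out, between -0.53 and -0.34. It was -0.27 (SE 0.071) and called with the trend subtracted. That second call held in 1 of the 6 fits with a library left out, the one without sgNT replicate 1, at -0.34.

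EHF and ELF1 both stood higher beside ELF4 in sgMLL3 libraries. Per length, EHF was at 0.899, 0.886 and 0.765 of the ELF4 level in sgMLL3 replicates 1, 2 and 3, against 0.516, 0.423 and 0.326 in sgNT replicates 1, 2 and 3. ELF1 was at 0.562 ± 0.040 of the ELF4 level in sgMLL3 and 0.324 ± 0.048 in sgNT libraries (SD, n = 3 each). Neither ratio overlapped between the groups as deposited. This follows from EHF and ELF1 being higher and ELF4 lower in every sgMLL3 library, so it is no further result. Once the trend was subtracted, EHF relative to ELF4 still differed by 0.60 on the log2 scale between the groups. It did not overlap, as neither gene did alone. ELF1 relative to ELF4 then differed by 0.23 and the groups overlapped.

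ETS1, the founding member and a factor linked to invasion and proteases, was the most abundant of the 10 per length and was not called. ETS1 (ENSG00000134954.14, chr11:128458761-128587558, minus strand) had 14752, 13239 and 13377 normalized counts in sgMLL3 replicates 1, 2 and 3, against 10664, 12608 and 13373 in sgNT replicates 1, 2 and 3. The groups overlapped, since sgNT replicate 3 lay above sgMLL3 replicate 2. The log2 fold change of ETS1 was 0.18 (SE 0.089), and -0.095 with the trend subtracted. Without sgNT replicate 1 the second value was -0.22 and called lower. After quantile normalization of the deposited values ETS1 had 0.25 and was called higher.

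ETS2, its closest relative, was not called either. ETS2 (ENSG00000157557.13, chr21:38805307-38824955, plus strand) had 2789, 2664 and 2732 normalized counts in sgMLL3 replicates 1, 2 and 3, against 2306, 2566 and 2649 in sgNT replicates 1, 2 and 3. The sgMLL3 libraries were all above the sgNT libraries, by a narrow gap. ETS2 had a log2 fold change of 0.12 (SE 0.087), and 0.14 with the trend subtracted. Per length, ETS1 stood at 3.87 ± 0.16 times the ETS2 level in sgMLL3 and 3.72 ± 0.17 times in sgNT libraries (SD, n = 3 each), and this ratio overlapped between the groups.

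FLI1, a factor of blood and endothelial cells and the neighbour of ETS1 on chromosome 11, was low and uneven. FLI1 (ENSG00000151702.17, chr11:128686535-128813267, plus strand) had 169, 122 and 136 normalized counts in sgMLL3 replicates 1, 2 and 3, against 137, 191 and 251 in sgNT replicates 1, 2 and 3. The groups overlapped, with sgNT replicate 1 among the sgMLL3 values. FLI1 had a log2 fold change of -0.41 (SE 0.21), not called, and -0.68 with the trend subtracted, not called. Leaving out 1 library at a time moved it between -0.63 and -0.20, and it was called only without sgNT replicate 1.

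Most markers of leukocytes and endothelial cells lay on the same side as FLI1. Of 20 such genes 12 were listed, with a summed level of 908 to 1074 normalized counts in sgMLL3 and 1349 to 1568 in sgNT libraries. Among the 10 that passed the filter the median log2 fold change was -0.45, and 9 lay below 0, SPI1 being the exception at 0.11. Of them, 0 were called higher and 3 lower, against 18.9% and 14.4% of all genes, and limma, edgeR and DESeq2 each had 0 higher at an unadjusted p under 0.05 too. KDR, the VEGF receptor of endothelium, fell by 0.66 on the log2 scale (limma adjusted p = 0.0117), CD34 fell by 0.54 (adjusted p = 0.0280) and CD14 fell by 0.69 (adjusted p = 0.0325, groups overlapping). After subtraction of the trend CD14 was not called (adjusted p = 0.279), KDR and CD34 were, and the leukocyte gene PTPRC was called lower at -0.76 (adjusted p = 0.0131). PTPRC averaged 221 ± 33.0 normalized counts in sgMLL3 and 278 ± 22.2 in sgNT libraries (SD, n = 3 each), and the endothelial gene PECAM1 67.3 ± 23.3 in sgMLL3 and 73.2 ± 22.1 in sgNT libraries. The T cell gene CD3E averaged 25.6 ± 13.7 normalized counts in sgMLL3 and 59.1 ± 32.3 in sgNT libraries (SD, n = 3 each) and was not called. The T cell gene CD3D and the endothelial genes CDH5, TEK, CLDN5, TIE1, EMCN and ERG are not among the rows used here. All 6 libraries are labelled as the MDA-MB-231 line, and the labels name no leukocytes or endothelial cells. In bulk RNA, fewer cells that express a gene and less of its RNA per cell cannot be told apart. The source of the FLI1 difference was not tested.

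ELK3 and ELK4 are ternary complex factors, which bind beside serum response factor (SRF) and respond to ERK. ELK3, also called NET and a repressor until phosphorylated, was not called. ELK3 (ENSG00000111145.8, chr12:96194382-96269835, plus strand) had 5786, 5693 and 5317 normalized counts in sgMLL3 replicates 1, 2 and 3, against 5017, 5085 and 4848 in sgNT replicates 1, 2 and 3. All sgMLL3 libraries were above all sgNT libraries. The log2 fold change of ELK3 was 0.17 (SE 0.078), and -0.089 with the trend subtracted.

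ELK4, also called SAP-1, was higher in sgMLL3 libraries and changed side with the second analysis. ELK4 (ENSG00000158711.14, chr1:205597556-205631962, minus strand) had 1781, 1700 and 1464 normalized counts in sgMLL3 replicates 1, 2 and 3, against 1384, 1338 and 1299 in sgNT replicates 1, 2 and 3. The groups did not overlap, and sgMLL3 replicate 3 lay nearest to the sgNT libraries. ELK4 had a log2 fold change of 0.29 (SE 0.099), called higher, but -0.16 and not called with the trend subtracted. The call was lost without sgMLL3 replicate 1 (0.24), sgMLL3 replicate 2 (0.27), sgNT replicate 2 (0.29) or sgNT replicate 3. ELK4 overlaps MFSD4A on the other strand over 5363 bases, and that gene averaged 6.03 normalized counts in sgMLL3 and 9.88 in sgNT libraries.

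ERF, a repressor that leaves the nucleus when ERK is active, was lower in sgMLL3 libraries. ERF (ENSG00000105722.10, chr19:42247572-42255157, minus strand) had 2864, 3255 and 3739 normalized counts in sgMLL3 replicates 1, 2 and 3, against 3932, 4010 and 4381 in sgNT replicates 1, 2 and 3. The groups did not overlap, and the sgMLL3 libraries were spread widely below the sgNT libraries. ERF had a log2 fold change of -0.33 (SE 0.097), called lower, and -0.091 without a call once the trend was subtracted. The call was also lost without sgMLL3 replicate 1 (-0.23), sgMLL3 replicate 2 (-0.33) or sgNT replicate 3. Nearly all of ERF, 7561 bases, lies inside AC006486.1 on the same strand in GENCODE release 29, a gene that is not among the rows used here. How the authors' counting split such reads is not given in the sources used here, so the ERF value is uncertain.

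Across the 10 members, 3 were called higher (EHF, ELF1 and ELK4), 2 lower (ELF4 and ERF) and 5 were not called. Over all genes tested 18.9% were called higher and 14.4% lower, 33.2% in all. The groups did not overlap for 8 of the 10 members, against 46.3% of all genes tested. With the trend subtracted, 1 member was higher (EHF) and 1 lower (ELF4), against 4.08% and 5.95% of genes, or 10.0% in all, and the groups did not overlap for 7, against 30.9%. Since the choice of members used this contrast, nothing is read from these counts. The median log2 fold change of the members was 0.15, against -0.017 for all genes tested, and with the trend subtracted it was -0.093, against -0.018.

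**Figure D2:**
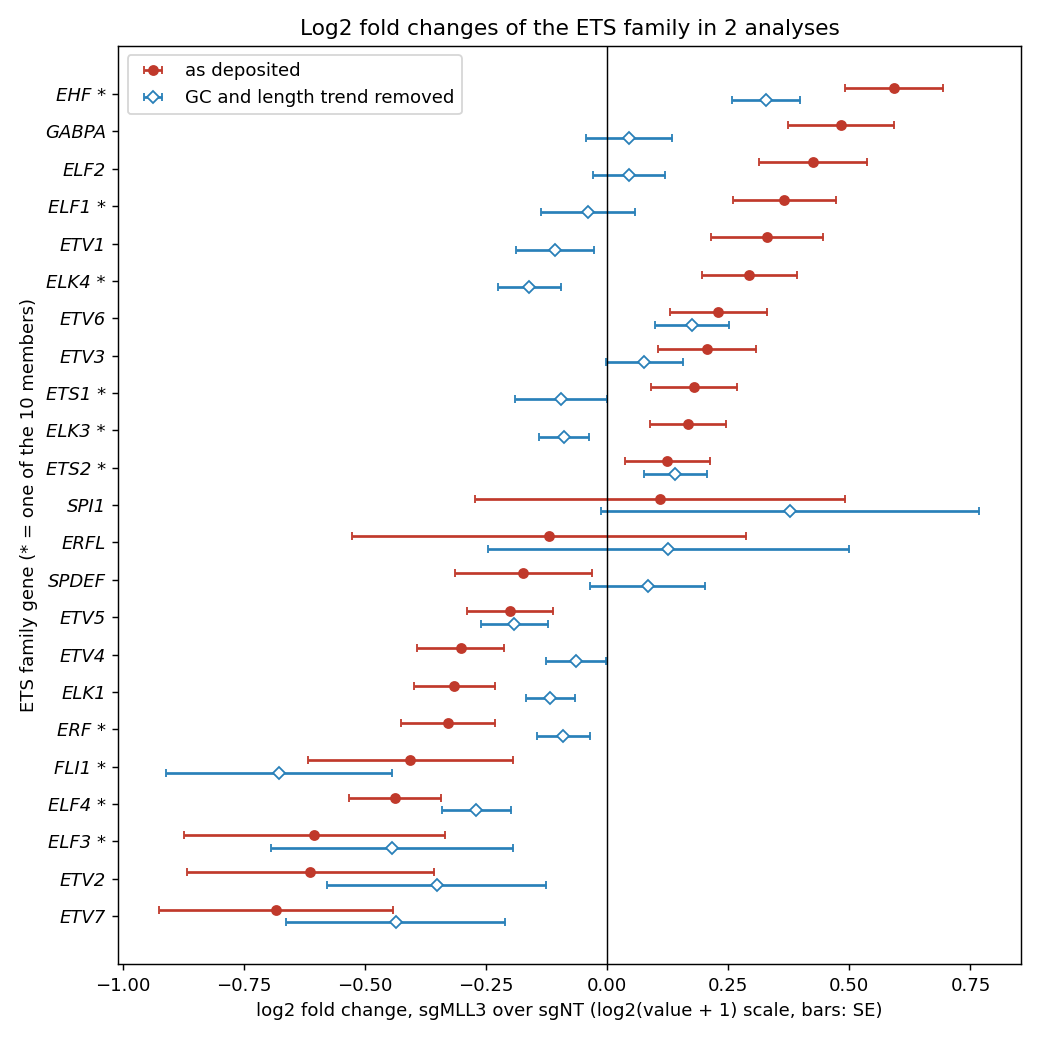
Log2 fold changes of sgMLL3 over sgNT (horizontal axis) for 23 ETS family genes (vertical axis, members starred), with SE as bars. Filled circles are the values as deposited and open diamonds the values with the GC and length trend subtracted. EHF moves to 0.33 and ELF4 to -0.27 under the second analysis, while 7 of the 23 genes pass to the other side of 0 (ELF1, ELK4, ETS1, ELK3, ETV1, SPDEF and ERFL).

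Most members were ordered along the base composition of their transcripts, with FLI1 as an exception. The GC content of the longest transcript was 38.1% for ELF1, 38.5% for ELK4 and 42.3% for EHF, the 3 called higher. It was 56.0% for ELF4 and 64.0% for ERF, the 2 called lower. ELF3, at 56.0%, also lay lower. FLI1, at 42.7% and so close to EHF, ETS1 and ELK3, lay lower at -0.41 and moved to -0.68 with the trend subtracted. Over the 10 members, which share the same 6 libraries, the Spearman correlation of the log2 fold change with GC content was -0.83, against -0.67 for all genes. Once the trend was subtracted it was -0.30 for the members and -0.028 for all genes. The part of base composition in single genes was not tested. Of the EHF log2 fold change, 0.33 was left after subtraction.

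**Figure D3:**
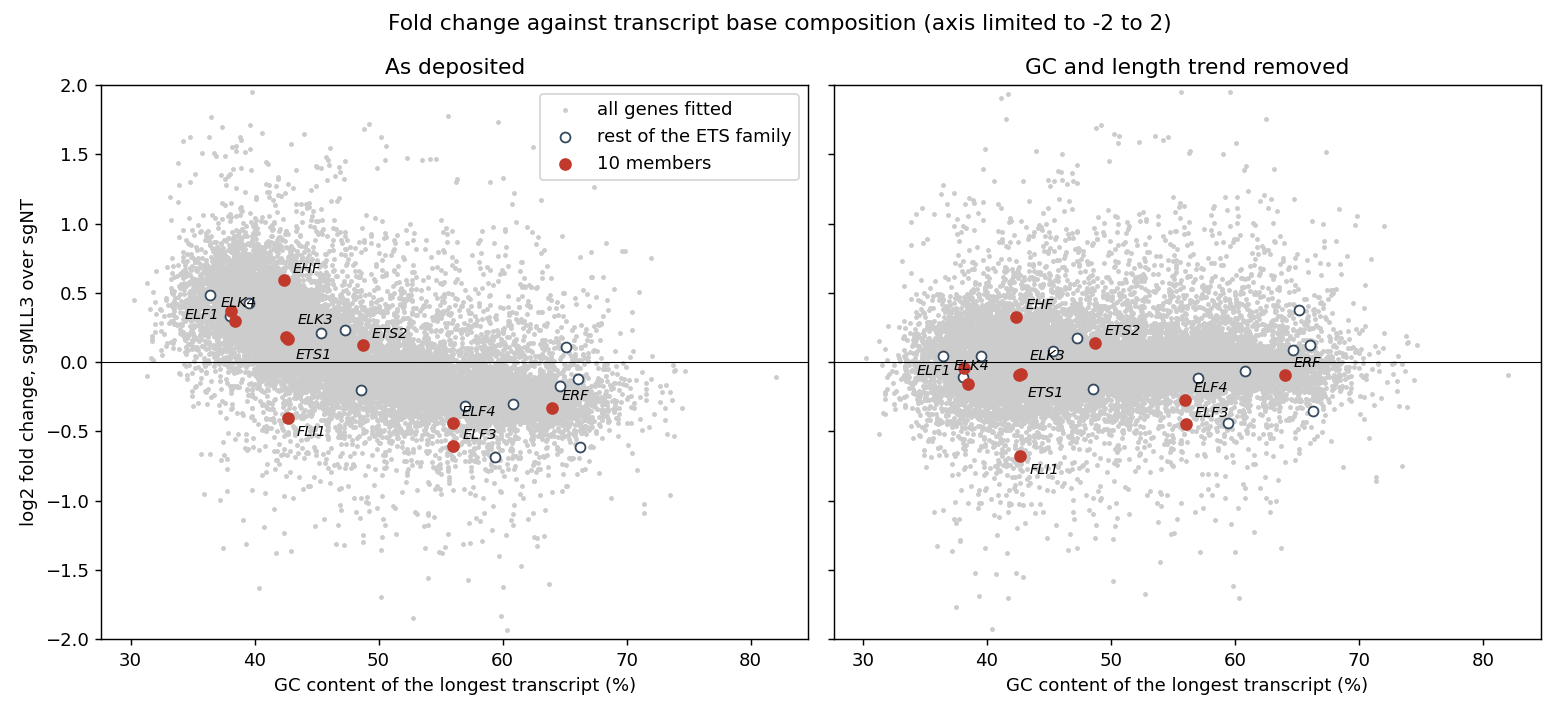
Log2 fold change of sgMLL3 over sgNT (vertical axis, limited to 2 either side of 0) against the GC content of the longest transcript (horizontal axis, percent), as deposited on the left and with the trend subtracted on the right. Gray points are the 14598 genes fitted, of which 8 on the left and 5 on the right fall outside the axis. Filled points are the 10 members and open points the rest of the family. The members slope downward with GC content on the left, and EHF stays above 0 on the right.

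Per length, ETS1 led the members in both groups, with 2683 normalized counts per kb in sgMLL3 and 2377 in sgNT libraries. In sgMLL3 libraries ELK3 (1331), ERF (1218), ELF4 (811), ETS2 (693), EHF (689), ELF1 (456), ELK4 (161), FLI1 (26.5) and ELF3 (11.3) followed. There ELK3 overlapped ERF and ETS2 overlapped EHF, and no other neighbours in the order overlapped. In sgNT libraries the order was ERF (1522), ELK3 (1185), ELF4 (1106), ETS2 (637), EHF (457), ELF1 (355), ELK4 (131), FLI1 (35.9) and ELF3 (17.5). There only ELK3 and ELF4 overlapped as neighbours. EHF thus reached the ETS2 range in sgMLL3 libraries and stayed below it in sgNT libraries.

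EHF took 8.53 ± 0.69% of the summed per-length level of the 10 genes in sgMLL3 and 5.88 ± 0.95% in sgNT libraries (SD, n = 3 each). ELF4 took 10.0 ± 0.44% in sgMLL3 and 14.1 ± 1.04% in sgNT libraries. ERF took 15.1 ± 2.19% in sgMLL3 and 19.5 ± 0.66% in sgNT libraries. These 3 shares did not overlap between the groups, nor did those of ELF3, ELF1, ETS2 and ETS1. The shares of ELK3, ELK4 and FLI1 overlapped. Since the choice of members used this contrast, nothing is read from this. ETS1 held the largest share, 33.2 ± 1.68% in sgMLL3 and 30.3 ± 1.55% in sgNT libraries.

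**Figure D4:**
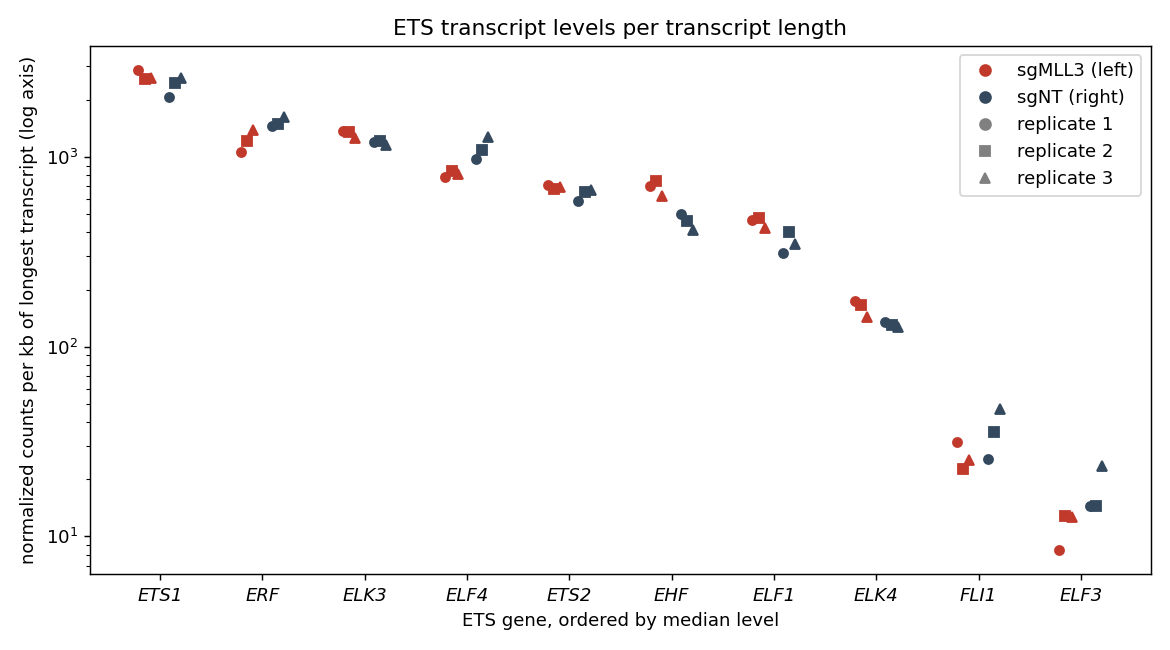
Normalized counts per kb of the longest transcript (vertical axis, log scale) for the 10 members, ordered by their median over 6 libraries. Each point is a library, sgMLL3 left and sgNT right of each gene. The levels run from ETS1, with 2683 in sgMLL3 and 2377 in sgNT libraries, down to ELF3, with 11.3 in sgMLL3 and 17.5 in sgNT libraries.

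The rest of the ETS family, 19 further genes of which 13 were listed, was tested in the same fit. Of these 13, 3 were called higher and 3 lower, against 18.9% and 14.4% of all genes, and the groups did not overlap for 9, against 46.3%. Their median log2 fold change was -0.12, against -0.017 for all genes tested, and 0.045 with the trend subtracted. GABPA, the DNA-binding subunit of the GABP factor that serves mitochondrial and housekeeping genes, rose. It averaged 909 ± 61.6 normalized counts in sgMLL3 and 650 ± 47.0 in sgNT libraries (SD, n = 3 each), a log2 fold change of 0.48 (limma adjusted p = 0.00350). ELF2, a relative of ELF1 and ELF4, rose by 0.42 (adjusted p = 0.00825). ETV1, a factor of the PEA3 group, rose by 0.33 (adjusted p = 0.0355) with overlapping groups.

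ELK1, the third ternary complex factor, fell by 0.32 on the log2 scale (limma adjusted p = 0.00886). Beside it stand log2 fold changes of 0.17 for ELK3, not called, and 0.29 for ELK4. Once the trend was subtracted, all 3 ternary complex factors lay slightly below 0 and none was called by limma, at -0.089 for ELK3, -0.16 for ELK4 and -0.12 for ELK1. ETV4, another PEA3 factor, fell by 0.30 (adjusted p = 0.0167). ETV7, a repressor of the TEL group, fell by 0.68 (adjusted p = 0.0375) at a low level, with 57.6 ± 7.71 normalized counts in sgMLL3 and 93.8 ± 17.5 in sgNT libraries (SD, n = 3 each).

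Of these 6 calls, that of GABPA held in all 6 fits with 1 library left out. Those of ELF2 and ELK1 were lost without sgMLL3 replicate 1, at 0.35 and -0.27. ETV1 and ETV4 each lost theirs in 4 of the 6 fits, those without sgMLL3 replicate 1, sgMLL3 replicate 2, sgNT replicate 2 or sgNT replicate 3, and ETV7 was called only without sgNT replicate 1.

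The other 7 were not called. Their log2 fold changes were -0.61 for ETV2 (limma adjusted p = 0.0714), 0.21 for the repressor ETV3, -0.20 for ETV5, 0.23 for the repressor ETV6, 0.11 for SPI1, -0.17 for the prostate and luminal factor SPDEF and -0.12 for ERFL. With the trend subtracted, limma called 0 of the 13 in either direction, and 3 of them (ELK1, ETV5 and ETV6) had an unadjusted p under 0.05. DESeq2 and edgeR were not run on trend-subtracted values. The trend-subtracted log2 fold changes of GABPA and ELF2 were 0.045 each, against 0.48 and 0.42 as deposited. The GC content of their transcripts was 36.4% and 39.6%. ELF5, ETV3L, ERG, FEV, SPIB and SPIC are not among the rows used here.

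Profiles over the 6 libraries were compared with that of EHF by the root mean square difference of gene-centred log2 values, among 12433 genes with a mean of at least 50. ZKSCAN8 (0.0185), RP2 (0.0258), TEAD1 (0.0279), SETD2 (0.0287) and SECISBP2L (0.0302) had the smallest differences from EHF, against a median of 0.357. This comparison used the values as deposited, which hold the GC trend. With the trend subtracted, EHF had a log2 fold change of 0.33. ZKSCAN8 then had 0.23, RP2 0.17, TEAD1 0.20, SETD2 0.29 and SECISBP2L 0.20, with RP2 and SECISBP2L not called. ZKSCAN8, the nearest, had 2401, 2517 and 2195 normalized counts in sgMLL3 replicates 1, 2 and 3, against 1696, 1562 and 1427 in sgNT replicates 1, 2 and 3. TEAD1 is a Hippo pathway factor and SETD2 a histone H3 lysine 36 methyltransferase. Within the family the nearest to EHF were ELF2 (0.103) and GABPA (0.120), ahead of ETV1 (0.147), ELK4 (0.165) and ELF1 (0.193).

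The genes next to each member on its chromosome were tested in the same fit, the 2 nearest tested genes on each side. Of 36 such genes, 10 were called higher and 4 lower, against 18.9% and 14.4% of all genes. Their median log2 fold change was -0.0037, against -0.017 for all genes tested. Beside EHF, ABTB2 fell by 0.28 on the log2 scale (limma adjusted p = 0.0266), and APIP and PDHX rose by 0.30 and 0.31 (adjusted p = 0.0206 and 0.0208). CAT, the catalase gene on the same side, had 0.22 and was not called. With the trend subtracted, where EHF was called, limma called 0 of its 4 neighbours, and 0 had an unadjusted p under 0.05. ETS1 and FLI1 share their neighbours, and of these 4 and the 4 beside ELF4 limma, edgeR and DESeq2 each called 0. Of the 8, BCORL1 beside ELF4 had an unadjusted p under 0.05 with each tool.

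Beside ELK4, CDK18, a kinase gene 93.0 kb away by gene start, had 34.2 ± 4.21 normalized counts in sgMLL3 and 9.60 ± 1.72 in sgNT libraries (SD, n = 3 each). It rose by 1.73 on the log2 scale (SE 0.41, limma adjusted p = 0.00453), and by 1.95 with the trend subtracted (adjusted p = 0.00744), on 8 to 42 reads a library. On the other side NUCKS1 rose by 0.33 (adjusted p = 0.0109). Beside ELF1, WBP4 rose by 0.57 and KBTBD6 by 0.46, beside ETS2 BRWD1 by 0.63, beside ELK3 LTA4H by 0.39 and CDK17 by 0.42, and beside ELF3 TIMM17A by 0.31. Beside ERF, GSK3A fell by 0.31, CIC by 0.37 and PAFAH1B3 by 0.29. With the trend subtracted, CDK18 and CIC were the 2 of the 36 still called.

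The gene lists, that of leukocyte and endothelial markers above included, were chosen with earlier results of these data known. Adjusted p-values of genes named from them are therefore a description. Of 25 tested genes whose proteins bind or regulate ETS factors, 2 were called higher and 7 lower, against 18.9% and 14.4% of all genes. After subtraction 1 was called each way, and the median log2 fold change was -0.055 as deposited and -0.083 after subtraction. SP100, a nuclear body protein that binds ETS1, rose by 0.49 (limma adjusted p = 0.000437), with 3272 ± 166 normalized counts in sgMLL3 and 2327 ± 48.4 in sgNT libraries (SD, n = 3 each). SPRED1, an inhibitor of RAS signalling, rose by 0.31 (adjusted p = 0.0224). CIC, a repressor of the PEA3 genes ETV1, ETV4 and ETV5, fell by 0.37 (adjusted p = 0.00596), MRTFA, a coactivator of SRF, by 0.40 (adjusted p = 0.00601) and MAPK3, the kinase ERK1, by 0.32 (adjusted p = 0.0121). The 2 called after subtraction were SP100 (0.23, adjusted p = 0.0365) and CIC (-0.19, adjusted p = 0.0280).

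Of 11 epithelial transcription factors tested, 1 was called higher and 2 lower, against 18.9% and 14.4% of all genes. Their median log2 fold change was -0.075, and -0.10 with the trend subtracted. TFAP2A, known for epidermis and breast, fell by 0.52 (limma adjusted p = 0.00745), and GATA3, a luminal factor, by 0.44 (adjusted p = 0.0116). TFAP2A was also called lower with the trend subtracted (-0.48, adjusted p = 0.0250).

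Of 17 genes described as regulated by the epithelial ETS factors, 2 were called higher and 1 lower, against 18.9% and 14.4% of all genes. Their median log2 fold change was -0.017, and 0.053 with the trend subtracted. MET, the HGF receptor gene, rose by 0.35 (limma adjusted p = 0.00734). PTGS2, the cyclooxygenase 2 gene, rose by 1.49 (adjusted p = 0.0139), with 82.4, 42.5 and 55.1 normalized counts in sgMLL3 replicates 1, 2 and 3, against 8.62, 25.8 and 34.8 in sgNT replicates 1, 2 and 3. CLDN4, a tight junction claudin gene, fell by 0.36 (adjusted p = 0.00350). Neither MET nor PTGS2 was called with the trend subtracted.

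Of 18 genes described as regulated by ETS1 or ETS2, 1 was called higher and 4 lower, against 18.9% and 14.4% of all genes. The median log2 fold change was -0.14, and 0.0040 with the trend subtracted. MMP1, the interstitial collagenase gene, rose by 0.60 (limma adjusted p = 0.00512), with 428 ± 53.3 normalized counts in sgMLL3 and 282 ± 33.8 in sgNT libraries (SD, n = 3 each). ITGB3, an integrin subunit gene, fell by 0.77 (adjusted p = 0.0252) with overlapping groups, and PLAU, the urokinase gene, by 0.28 (adjusted p = 0.0255). KDR was among the 4 lower. MMP1 (0.41) and KDR (-0.72) were called with the trend subtracted.

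Of 16 targets of SRF and its ternary complex factors, 2 were called higher and 1 lower, against 18.9% and 14.4% of all genes. The median log2 fold change was 0.020, against -0.017 for all genes tested, and 0.20 with the trend subtracted, against -0.018. The summed level of the 16 was 140026 to 144699 normalized counts in sgMLL3 libraries. It spread more widely in sgNT libraries, from 114464 to 187356. FOS, an immediate-early gene, rose by 0.48 (limma adjusted p = 0.0349), with 346 ± 33.0 normalized counts in sgMLL3 and 251 ± 55.7 in sgNT libraries (SD, n = 3 each). MCL1, a survival gene of the BCL2 family, rose by 0.30 (adjusted p = 0.00699), and SRF itself fell by 0.28 (adjusted p = 0.0208). FOS (0.62) and MCL1 (0.18) were also called with the trend subtracted.

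Across the table, 882 of 11207 tested genes with a promoter stretch, 7.87%, held CCGGAAGT on either strand. Of them 25.7% were called higher and 16.1% lower, against 20.6% and 15.01% of all 11207. Their median log2 fold change was -0.00040, against -0.0082 for all 11207. After subtraction 5.33% were higher and 6.46% lower, against 4.41% and 6.26%. A motif match is not evidence of binding.

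Among the neighbours and list genes named above, SP100, MRTFA, CLDN4, MMP1, WBP4, BRWD1, LTA4H, CDK17 and CDK18 kept their calls, as deposited, in each fit with 1 library left out. Each of the others lost its call in at least 1 such fit, most often the one without sgMLL3 replicate 1.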

How the data were processed

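Reads were sequenced from total RNA of 3 sgMLL3 and 3 sgNT libraries. Per the submitters' processing notes, reads were checked with FastQC and handled with STAR 2.4.0 (GRCh38.p13), featureCounts 1.5.0 and DESeq2 1.30.1. Neither strand setting nor annotation release is given in the sources used here. Of the deposited table, only the normalized count per library was used, a signal the authors made by scaling each library. The authors' log2 fold changes, p-values and Wald score, also deposited, were left out. Every value was a whole multiple of 1 step per library (100% within 0.01), so whole reads were recovered for edgeR 4.0.16 and DESeq2 1.42.0.

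Differences were tested with limma 3.58.1 under R 4.3.3 (trend option on) after log2(value + 1), for genes averaging 10 or more, 3 against 3 libraries, two-sided, Benjamini-Hochberg over 14618 genes, threshold 0.05. The second analysis subtracted, per library, natural splines (5 terms each) of GC content and log2 length of the longest GENCODE release 29 transcript from gene-centred values (14598 genes). Both fits were also run on simulated counts, without a GC slope and with a slope in a single library of each group. In the data every library leaned with GC content, so those simulations do not check the fits for such a trend. For each member the spread between libraries exceeded the counting error, from 2.29% against 1.87% for ETS2 in sgMLL3 to 30.3% against 11.2% for ELF3 in sgNT libraries (coefficients of variation).

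Named genes were all members, all listed family genes, the 2 nearest tested genes on each side (those called, with a few others), KMT2C, 5 profiles nearest to EHF, and up to 3 genes per direction from 7 other lists, those with the smallest adjusted p. The epithelial factor called higher is not reported here. PTPRC, CD3E, PECAM1, VIM, CD44, CDH1, ERBB2, KRT8, EPCAM and MFSD4A were named outside this rule. CAV1 (log2 fold change 0.27, limma adjusted p = 0.0239) and KRT19 (-0.28, adjusted p = 0.0144) were the 2 called of 11 breast line markers. Members and lists were chosen with earlier results of these data known. Promoter sequences are from RefSeq (GRCh38.p14).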

Additional observations from a re-analysis of the deposited data

How the results depend on the processing

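The whole table had 2760 genes called higher and 2099 lower, against 595 and 868 with the GC and length trend subtracted. Leaving out 1 library at a time, with or without the trend, gave 127 to 3300 higher and 252 to 2868 lower. The highest counts came without sgNT replicate 1, where 1490 were higher and 2110 lower with the trend subtracted. Without any other single library, the trend-subtracted fits gave 127 to 375 higher and 252 to 511 lower. The members were 3 higher and 2 lower; with the trend subtracted they were 1 and 1, and leaving out 1 library gave 0 to 3 higher and 0 to 4 lower. The other family genes were 3 and 3, against 0 and 0 with the trend subtracted, and 0 to 4 higher and 0 to 3 lower with 1 library left out. The neighbours were 10 and 4, against 1 and 1 with the trend subtracted, 7 lower after quantile normalization, and 0 to 11 higher and 0 to 7 lower with 1 library left out. Without sgMLL3 replicate 1, 1 member was higher, 1 lower and 0 neighbours lower.

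Same-numbered deviations correlated weakly, at 0.0658, 0.00629 and 0.129 for replicates 1, 2 and 3. For sgMLL3 replicates 1 and 3 the same-numbered sgNT library was the best match. By contrast, sgMLL3 replicate 2 correlated best with sgNT replicate 1 (0.0224). Whether the replicate numbers pair the libraries is not settled by these values. With the replicate number as a block 3241 genes were higher and 3024 lower. With the block and the trend subtracted, 540 genes were higher and 773 lower, the members were 1 and 0, the other family genes 0 and 0, and the neighbours 1 and 2.

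With the trend subtracted, with or without the block, the sign turned for ELF1 (-0.040), ELK4 (-0.16), ETS1 (-0.095), ELK3 (-0.089), ETV1 (-0.11), SPDEF (0.084), ERFL (0.13), APIP (-0.0027), TIMM17A (-0.0085), NUCKS1 (-0.092), SPRED1 (-0.12) and KMT2C (-0.039). With 1 library left out, with or without the trend, the ranges were -0.16 to 0.46 for ELF1, -0.19 to 0.38 for ELK4, -0.22 to 0.25 for ETS1, -0.11 to 0.20 for ELK3, -0.17 to 0.44 for ETV1, -0.028 to 0.53 for GABPA, -0.26 to 0.60 for SPI1, -0.24 to 0.15 for SPDEF and -0.27 to 0.32 for ERFL. For neighbours and list genes they were -0.043 to 0.34 for APIP, -0.041 to 0.36 for TIMM17A, -0.13 to 0.42 for NUCKS1, -0.33 to 0.049 for PAFAH1B3, -0.19 to 0.39 for SPRED1, -0.040 to 0.42 for MET, -0.34 to 0.019 for KRT19 and -0.079 to 0.25 for KMT2C. The cause was not tested. EHF kept its direction in 23 of 23 alternatives and its call in 20, and ELF4 kept its direction in 23 and its call in 17. All of these alternatives reuse the same 6 libraries, and the choice of members used this contrast, so nothing is read from these counts. Genes with ACCGGAAGT in place of CCGGAAGT had a median of -0.10. Reads were few for ELF3, FLI1, CDK18 and SPI1.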
